A study of Mus musculus with 4 samples.

Results

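Hypoxia-inducible and glycolysis genes were examined in brain vascular cells of mice fed the CSF1R inhibitor PLX5622. The set has 10 genes, named by symbol and taken from the 32285 genes counted in each library, and all 10 were found: Ankrd37, Egln3, Bnip3, P4ha1, Ndrg1, Hk1, Pfkfb3, Pgk1, Ldha and Pdk1. The C57BL6 mice were fed for 1 month, either chow holding 1200 ppm of PLX5622 or a control diet. PLX5622 blocks the receptor that microglia need to survive, and the series was set up to learn what the loss of microglia does to brain vessels. Brain tissue without meninges, cerebellum and olfactory bulbs was dissociated with enzymes, cells carrying the endothelial surface protein CD31 were sorted, and droplet libraries of the 3 prime ends of transcripts were sequenced. Each diet has 2 libraries, called 1 and 2 below, and the brains of 3 mice were spread over them. A library is therefore not 1 animal, the same mouse may be in both libraries of its diet, and all p-values measure the spread between libraries, which may be technical.

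When oxygen is short, the hypoxia-inducible factors HIF-1 and HIF-2 escape degradation, pair with ARNT and bind short DNA elements with the core letters ACGTG or GCGTG near their target genes. Their targets raise glucose uptake and glycolysis, turn pyruvate away from mitochondria, remove mitochondria by mitophagy and prepare collagen for secretion. Brain endothelial cells rely strongly on glycolysis and express the HIF-2 subunit gene Epas1 under normal oxygen as well.

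Promoter letters of 5 members are printed because 4 of these genes (Ankrd37, Bnip3, P4ha1 and Ldha) were the ones that rose, while Pgk1, a classical HIF-1 target whose promoter holds ACGTG but not GCGTG, did not pass the test. They come from RefSeq on build GRCm38.p6, run 5′ to 3′ along the gene's strand from 250 bases before to 50 after its start, and carry ACGTG and GCGTG, on either strand, in capitals. They lie at chr8:45999801-46000100 (minus strand, Ankrd37), chr7:138909457-138909756 (minus, Bnip3), chr10:59323046-59323345 (plus, P4ha1), chr7:46845554-46845853 (plus, Ldha) and chrX:106186850-106187149 (plus, Pgk1).
Ankrd37: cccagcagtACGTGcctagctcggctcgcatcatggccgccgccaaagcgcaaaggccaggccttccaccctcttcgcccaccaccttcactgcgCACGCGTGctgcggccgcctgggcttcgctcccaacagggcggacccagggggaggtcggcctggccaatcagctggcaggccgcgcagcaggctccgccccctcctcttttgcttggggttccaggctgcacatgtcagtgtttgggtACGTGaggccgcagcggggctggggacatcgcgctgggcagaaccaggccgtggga
Bnip3: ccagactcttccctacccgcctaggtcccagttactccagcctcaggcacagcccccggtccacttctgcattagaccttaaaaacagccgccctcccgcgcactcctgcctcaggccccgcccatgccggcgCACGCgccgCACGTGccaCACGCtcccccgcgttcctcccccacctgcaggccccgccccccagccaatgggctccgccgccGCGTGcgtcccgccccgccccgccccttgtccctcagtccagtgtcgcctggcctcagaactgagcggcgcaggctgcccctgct
P4ha1: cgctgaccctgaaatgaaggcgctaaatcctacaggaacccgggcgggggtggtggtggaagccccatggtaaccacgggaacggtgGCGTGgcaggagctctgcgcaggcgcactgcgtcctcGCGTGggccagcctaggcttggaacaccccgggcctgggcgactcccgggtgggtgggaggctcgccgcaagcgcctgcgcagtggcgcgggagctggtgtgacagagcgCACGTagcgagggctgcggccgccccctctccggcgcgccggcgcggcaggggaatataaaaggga
Ldha: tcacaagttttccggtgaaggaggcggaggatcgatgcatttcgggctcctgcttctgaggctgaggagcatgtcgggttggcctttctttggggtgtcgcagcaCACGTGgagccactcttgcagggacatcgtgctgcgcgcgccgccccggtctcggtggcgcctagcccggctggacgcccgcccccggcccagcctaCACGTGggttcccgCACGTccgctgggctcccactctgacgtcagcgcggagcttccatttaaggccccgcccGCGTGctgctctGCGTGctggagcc
Pgk1: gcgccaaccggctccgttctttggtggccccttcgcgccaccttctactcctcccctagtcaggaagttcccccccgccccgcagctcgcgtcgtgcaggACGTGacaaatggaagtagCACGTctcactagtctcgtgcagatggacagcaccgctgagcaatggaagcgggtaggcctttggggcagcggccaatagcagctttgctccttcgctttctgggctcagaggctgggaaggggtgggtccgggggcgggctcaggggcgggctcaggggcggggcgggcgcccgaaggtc

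Counting each strand, ACGTG occurs at 2 positions in the Ankrd37 promoter, 2 in Bnip3, 1 in P4ha1, 5 in this Ldha start and 2 in Pgk1. The palindrome CACGTG, present in Bnip3 and Ldha, counts on both strands, and CACGCGTG in Ankrd37 holds overlapping GCGTG matches. The RefSeq table held 13 starts for 9 of the 10 members, of which 8 members had ACGTG and 9 had either motif in at least 1 start, while Ndrg1 had no entry in it. The letters are common: 19.6% of the 32851 promoters in the table hold ACGTG, 32.4% hold GCGTG and 43.8% hold either. Among promoters of the genes tested in endothelial-like cells the shares were 25.3%, 50.3% and 61.7%. A match is a description of the letters, and promoters of members that did and did not change both hold it. GCGTG is absent from the Pgk1 promoter, but Hk1, Pfkfb3 and Pdk1, which did not pass the test either, hold it in at least 1 start.

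On the GENCODE M21 annotation of GRCm38 all 10 members are protein-coding genes. Ankrd37 lies on chromosome 8 from 45996902 to 46005707 on the minus strand, where it overlaps Ufsp2 and Lrp2bp on the other strand. Bnip3 lies on chromosome 7 from 138890836 to 138909519 (minus), P4ha1 on chromosome 10 from 59323296 to 59373304 (plus), Egln3 on chromosome 12 from 54178981 to 54203860 (minus) and Ndrg1 on chromosome 15 from 66929318 to 66969640 (minus). Hk1 lies on chromosome 10 from 62268855 to 62379908 (minus), Pfkfb3 on chromosome 2 from 11471433 to 11554077 (minus), Pgk1 on chromosome X from 106187100 to 106203699 (plus), Ldha on chromosome 7 from 46841475 to 46855627 (plus) and Pdk1 on chromosome 2 from 71873224 to 71903858 (plus). The sources used here do not say whether the authors' counting used strand. Ufsp2, the one of the genes overlapping Ankrd37 with enough counts to be tested, read 26.97 and 26.18 CPM on PLX5622 against 19.9 and 26.3 CPM on control diet (edgeR adjusted p = 0.709). Ldha and Pgk1 have processed pseudogene copies, so part of their reads may have been lost or assigned elsewhere.

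The libraries held 19044018 and 26949278 UMIs (unique molecules) on PLX5622, against 11186648 and 38600208 UMIs on control diet. A droplet counted as a cell from 1000 UMIs and 500 genes upwards with up to 10% of UMIs from mitochondrial genes. These limits gave 3989 and 3670 cells on PLX5622 and 1696 and 5509 cells on control diet, with between 1 and 6 barcodes shared by any pair of libraries. Median UMIs per cell were 3834 and 5921.5 on PLX5622, against 5184 and 5573 on control diet. Clusters were named from markers: 13660 cells (91.2% to 92.7% of each library) were endothelial-like, among them 1689 arterial-like and 1867 venous-like cells and 2 large clusters, numbered 0 and 1. Cluster 0, led by Meox1, Angpt2 and Chst2, held 3996 cells and is called capillary-like. In it 6 of 9 capillary markers were at least 1.2-fold above the mean of the endothelial-like clusters, its own included. By the same count venous-like cells had 4 capillary and 10 venous markers. Cluster 1, led by Tcim, Slc26a10 and Gm9946, held 3830 cells and is called by its number, since 3 of the 9 capillary markers reached that fold and its 10 leading genes include the arterial marker Efnb2 and no capillary marker. Another 2259 endothelial-like cells, with low UMIs, had no zone, and 19 were fenestrated-like. Mural cells, which wrap the vessels, comprised 345 pericyte-like and 227 smooth muscle-like cells. In the summed endothelial-like cells, 6 and 7 of 10 microglial markers were at 0 UMIs on PLX5622, against 2 and 1 on control diet, and their summed level was 24.1 and 26.9 CPM on PLX5622, against 27.96 and 26.3 CPM on control diet.

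In endothelial-like cells 4 members rose on PLX5622 and none fell: Ankrd37 most (2.76-fold), then P4ha1 (2.04-fold), Ldha (1.56-fold) and Bnip3 (1.49-fold). They include 1 glycolytic enzyme, a mitophagy receptor and a collagen-modifying enzyme, and the other 4 glycolysis genes, Hk1, Pfkfb3, Pgk1 and Pdk1, did not pass the test. UMIs were summed per library and tested with edgeR's quasi-likelihood test, adjusted by Benjamini-Hochberg over 12811 genes, at an adjusted p under 0.05. Of the 9 members with enough counts, 4 passed as higher, where 0.749% of all tested genes did, and 0 passed as lower, where 0.351% did. Both PLX5622 libraries lay above both control libraries for 6 members (21.1% of all genes) and below them for 2 (20.4% of all genes), and 1 overlapped. The median log2 fold change was 0.198 over the 9 members and 0.004 over all tested genes. The members were chosen with earlier results of these data known, so their share is no independent evidence.

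**Figure D1:**
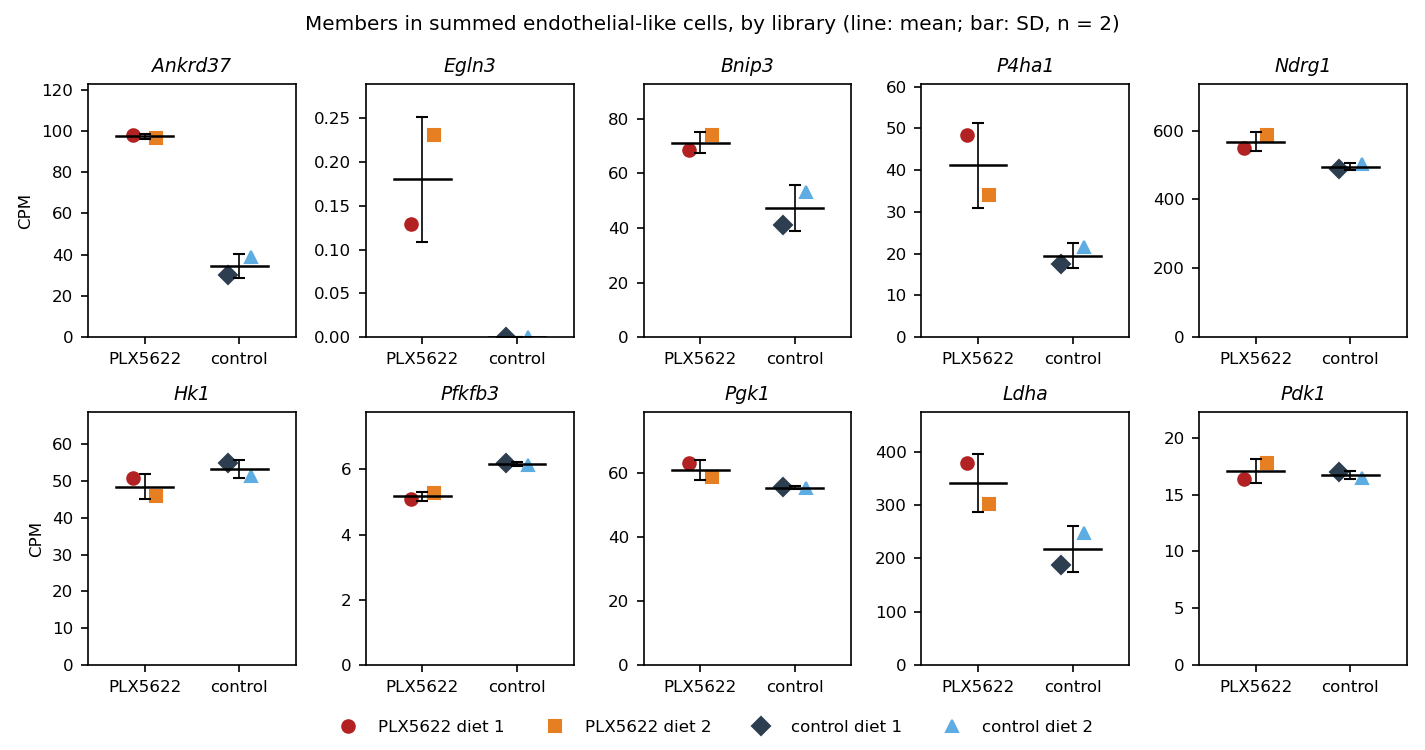
Level of each member in the summed endothelial-like cells of each library, in CPM (UMIs per 1e6; of the effective library size for the 9 tested genes, of the UMI total for Egln3). Points are libraries, PLX5622 at the left of each panel and control at the right, lines are means and bars SD (n = 2). Ankrd37 sits near 97 CPM in both PLX5622 libraries and under 40 CPM in both controls, and Pdk1 overlaps.

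Ankrd37, which encodes an ankyrin-repeat protein and is induced by HIF-1 in several cell types, read 98.1 and 96.7 CPM in PLX5622 diet 1 and 2, against 30.3 and 38.8 CPM in control diet 1 and 2. The PLX5622 libraries were nearly equal and stood far above both controls. The log2 fold change was 1.47 ± 0.11 (SE, n = 2 per diet, edgeR adjusted p = 1.15e-06). The sums behind it were 1487 and 2056 UMIs on PLX5622, against 278 and 1234 UMIs on control diet.

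Egln3 encodes the prolyl hydroxylase PHD3, a HIF target that itself marks HIF for degradation. It was near the limit of detection, with 2 and 5 UMIs on PLX5622 and 0 and 0 UMIs on control diet, and was not tested. Against a floor of 3 counts over both control libraries, its summed level on PLX5622 was 2.59-fold higher. The floor allows for counting error in the control libraries only. The 7 UMIs on PLX5622 were taken as exact, so the value is not a lower bound.

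Bnip3 encodes a receptor in the outer mitochondrial membrane that drives mitophagy. Its levels were 68.6 and 74.1 CPM on PLX5622, against 41.3 and 53.4 CPM on control diet. The diets did not overlap, although control diet 2 lay closer to the PLX5622 libraries than control diet 1 did. The log2 fold change was 0.57 ± 0.11 (SE, edgeR adjusted p = 0.0164).

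P4ha1 encodes the catalytic subunit of collagen prolyl 4-hydroxylase, which lets collagen chains form a stable triple helix. It read 48.4 and 34.0 CPM on PLX5622, against 17.4 and 21.6 CPM on control diet. PLX5622 diet 1 was highest, and the gap between the PLX5622 libraries was wider than that between PLX5622 diet 2 and control diet 2. The log2 fold change was 1.03 ± 0.17 (SE, edgeR adjusted p = 0.0277). With 1 library left out, the remaining library of its diet has no spread of its own and is assumed to vary like the pair of the other diet. In such fits the call was lost without control diet 1 (adjusted p = 0.308) and without control diet 2 (0.178), while the log2 fold change stayed between 0.77 and 1.28 under all 15 alternatives run.

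Ndrg1 encodes a cytosolic stress-response protein induced by hypoxia. It read 548.9 and 587.2 CPM on PLX5622, against 487.4 and 502.9 CPM on control diet. The diets did not overlap, but the log2 fold change of 0.20 ± 0.11 (SE) did not pass (edgeR adjusted p = 0.584).

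Among the glycolysis genes, Ldha turns pyruvate into lactate and regenerates the NAD+ that glycolysis needs. Ldha read 379.7 and 303.0 CPM on PLX5622, against 187.2 and 247.6 CPM on control diet. Both PLX5622 libraries were higher than both controls, with PLX5622 diet 1 highest and control diet 1 lowest. The log2 fold change was 0.64 ± 0.14 (SE, edgeR adjusted p = 0.0341), and the call was lost with DESeq2 (adjusted p = 0.466), without PLX5622 diet 1 (0.183) and without control diet 1 (0.141).

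Pgk1 encodes the enzyme of the first ATP-making step of glycolysis. It read 63.2 and 58.9 CPM on PLX5622, against 55.7 and 55.2 CPM on control diet, a log2 fold change of 0.14 ± 0.09 (SE, edgeR adjusted p = 0.646). Hk1, the hexokinase that commits glucose to the cell's metabolism, read 50.8 and 46.0 CPM on PLX5622, against 55.0 and 51.4 CPM on control diet (log2 fold change -0.13 ± 0.09 SE, edgeR adjusted p = 0.683). Both differences were small, in opposite directions, and neither passed the test.

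Pfkfb3 makes fructose 2,6-bisphosphate, the activator of phosphofructokinase, and is known as a driver of glycolysis in sprouting endothelium. It had few molecules, with 5.08 and 5.27 CPM on PLX5622, against 6.21 and 6.13 CPM on control diet (log2 fold change -0.25 ± 0.18 SE, edgeR adjusted p = 0.691). Pdk1 encodes a kinase that switches off pyruvate dehydrogenase, and read 16.4 and 17.8 CPM on PLX5622, against 17.0 and 16.5 CPM on control diet (log2 fold change 0.04 ± 0.12 SE, edgeR adjusted p = 0.949). Pfkfb3 lay lower in both PLX5622 libraries without passing the test, and the diets overlapped for Pdk1.

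Vessel zones differed in the level of several members within each library, on the scale of CPM of each zone's UMI total, with no test run on the zones themselves. The clusters that define the zones were made without the members. The orders compare arterial-like cells, clusters 0 and 1 and venous-like cells, and leave out endothelial-like cells of no zone. Among these Ankrd37 was highest in cluster 0 in 4 of 4 libraries, with venous-like cells close to it. It was lowest in arterial-like cells in 3 of 4 and in cluster 1 in control diet 1. In the cells of no zone, whose leading genes include Ankrd37, it stood at 139.4 and 135.6 CPM on PLX5622 and 48.98 and 53.2 CPM on control diet. Its arterial-like levels were 27.6 and 29.2 CPM on PLX5622 and 23.7 and 15.2 CPM on control diet. In cluster 1 it stood at 61.4 and 77.2 CPM on PLX5622 and 19.3 and 27.8 CPM on control diet, and in cluster 0 at 118.4 and 115.4 CPM on PLX5622 and 44.8 and 54.4 CPM on control diet. Its venous-like levels were 115.9 and 113.4 CPM on PLX5622, against 36.5 and 47.7 CPM on control diet. On PLX5622 the arterial-like level was thus set well apart from the others, while on control diet the ranges of cluster 0 and venous-like cells overlapped, as did those of cluster 1 and arterial-like cells.

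Other members followed other orders, again with the cells of no zone left out. Bnip3 was lowest in venous-like cells in 4 of 4 libraries and highest in arterial-like cells in 3 of 4, and Ldha was lowest in arterial-like cells in 4 of 4. Pdk1 was also lowest in arterial-like cells in 4 of 4, at 12.6 and 15.4 CPM on PLX5622 and 18.3 and 15.8 CPM on control diet. Ndrg1 was highest in cluster 1 in 4 of 4 libraries, and Hk1, Pgk1, Pfkfb3 and P4ha1 kept no single order.

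**Figure D2:**
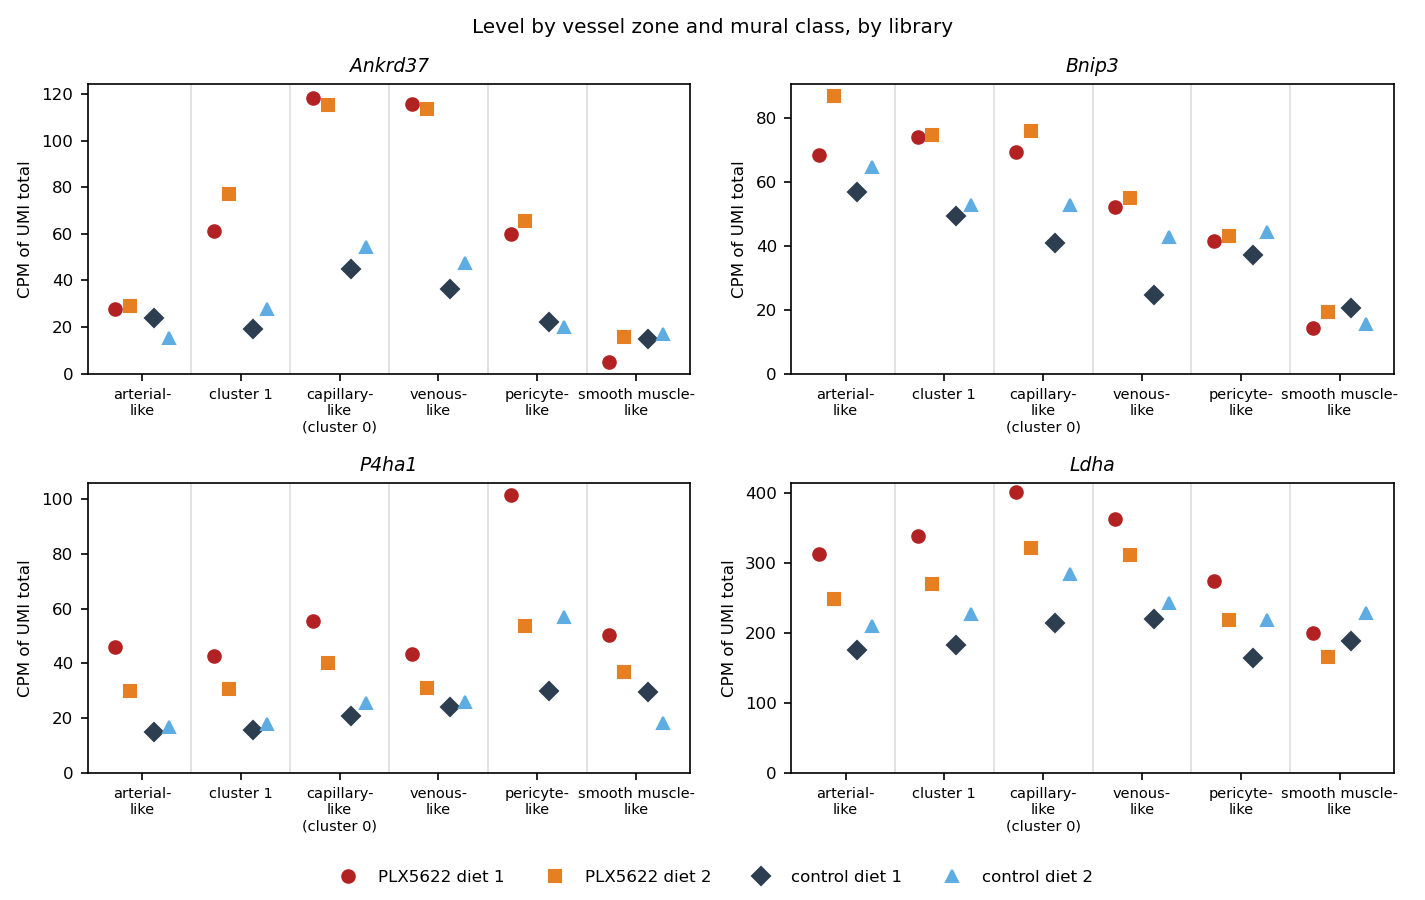
Levels of the 4 members that rose, in CPM of the UMI total of each population, in arterial-like cells, cluster 1, capillary-like cells (cluster 0) and venous-like, pericyte-like and smooth muscle-like cells; points are libraries, PLX5622 left of control. Ankrd37 is near 28 CPM in arterial-like cells on PLX5622 and above 110 CPM in cluster 0 and venous-like cells, and in smooth muscle-like cells the diets overlap for Ankrd37, Bnip3 and Ldha.

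Within zones, 4 members rose in capillary-like cells (cluster 0), 2 in cluster 1, 2 in arterial-like and 2 in venous-like cells, and none fell. The background of higher calls was 0.881% of 11236 genes in cluster 0, 0.287% of 10785 genes in cluster 1, 0.427% of 10074 genes in arterial-like and 0.837% of 10517 genes in venous-like cells. The background of lower calls was 0.303% in cluster 0, 0.0742% in cluster 1, 0.199% in arterial-like and 0.228% in venous-like cells. The fits of cluster 0 and cluster 1 alone were chosen after seeing the data.

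In cluster 0 Ankrd37 read 120.0 and 117.2 CPM on PLX5622, against 43.05 and 55.4 CPM on control diet (log2 fold change 1.22 ± 0.13 SE, edgeR adjusted p = 1.21e-10). P4ha1 read 56.3 and 40.6 CPM on PLX5622, against 19.8 and 25.8 CPM on control diet (1.00 ± 0.16 SE, adjusted p = 3.25e-05). Neither gene overlapped between the diets, and Bnip3 (0.61 ± 0.13 SE, adjusted p = 0.00415) and Ldha (0.54 ± 0.14 SE, adjusted p = 0.0322) also passed with smaller estimates. In cluster 1 Ankrd37 read 62.1 and 78.9 CPM on PLX5622, against 18.6 and 28.3 CPM on control diet (1.4995 ± 0.17 SE, adjusted p = 0.00016). P4ha1 read 43.06 and 31.3 CPM on PLX5622, against 15.1 and 18.2 CPM on control diet (1.09 ± 0.18 SE, adjusted p = 0.0071). Both genes lay above both controls there, as did Bnip3 (0.56, adjusted p = 0.0543) and Ldha (0.59, adjusted p = 0.0845), which did not pass. Cluster 0 held 56.0% and 58.0% of the cells of both clusters on PLX5622, against 44.0% and 45.1% on control diet, and in each library Ankrd37 stood higher in cluster 0 than in cluster 1.

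With clusters 0 and 1 together, 4 members rose (0.804% of 11937 genes) and 0 fell (0.369%). Both PLX5622 libraries were above both controls for 6 of 9 members in these clusters together (20.2% of all genes), 4 in arterial-like cells (17.5%) and 6 in venous-like cells (19.3%). Both were below for 0 in clusters 0 and 1 together (20% of all genes), 3 in arterial-like cells (18.1%) and 1 in venous-like cells (19.2%). The 4 that rose with both clusters together were the same genes as in all endothelial-like cells. Ankrd37 there read 95.4 and 102.3 CPM on PLX5622, against 29.4 and 40.7 CPM on control diet (log2 fold change 1.45 ± 0.13 SE, edgeR adjusted p = 4.4e-07). P4ha1 read 50.7 and 37.0 CPM on PLX5622, against 17.1 and 21.7 CPM on control diet (1.12 ± 0.15 SE, adjusted p = 1.87e-04). Neither gene overlapped between the diets, and the log2 fold changes of Bnip3 (0.59, adjusted p = 0.00833) and Ldha (0.61, adjusted p = 0.0365) were smaller. The call of Bnip3 was lost without PLX5622 diet 2 (adjusted p = 0.0609) and that of Ldha with DESeq2 (0.729), at a mitochondrial limit of 5% (0.0621) and without PLX5622 diet 1 (0.344).

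In venous-like cells Ankrd37 read 117.7 and 114.7 CPM on PLX5622, against 35.5 and 48.4 CPM on control diet (log2 fold change 1.39 ± 0.14 SE, edgeR adjusted p = 2.29e-11). Ldha read 368.6 and 314.8 CPM on PLX5622, against 214.1 and 246.6 CPM on control diet (0.55 ± 0.11 SE, adjusted p = 0.00193; 0.241 without PLX5622 diet 1). Bnip3 and P4ha1 also lay above both controls, with log2 fold changes of 0.54 and 0.53 that did not pass (adjusted p = 0.128 and 0.216). In fits with 1 library left out, where the lone library of a diet has no spread of its own, Bnip3 had an adjusted p of 1.41e-04 without control diet 2 (log2 fold change 1.18) and P4ha1 had 0.0477 without PLX5622 diet 2 (0.79).

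In arterial-like cells the order of the genes changed. P4ha1 read 46.6 and 30.3 CPM on PLX5622, against 14.5 and 17.1 CPM on control diet (log2 fold change 1.18 ± 0.23 SE, edgeR adjusted p = 9.49e-05). Ldha read 317.0 and 251.6 CPM on PLX5622, against 170.6 and 213.4 CPM on control diet (0.54 ± 0.13 SE, adjusted p = 0.00849). Both genes lay above both controls, and both calls were lost with DESeq2 (adjusted p = 0.326 and 0.722) and without PLX5622 diet 1 (adjusted p = 0.196 and 1.0), while that of Ldha was also lost without control diet 1 (0.138). Ankrd37 read 27.97 and 29.62 CPM on PLX5622, against 23.1 and 15.6 CPM on control diet, from 48 and 91 UMIs on PLX5622 and 35 and 80 UMIs on control diet. The diets did not overlap, but the log2 fold change of 0.69 ± 0.23 (SE) did not pass (adjusted p = 0.214). Without control diet 1 it was 0.90 and passed (adjusted p = 0.0393), and without control diet 2 it was 0.33.

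The difference between zones was tested directly in 1 model over the 12 sums of library and zone. None of the 9 members passed in either contrast, where 0.233% of 11578 genes did for arterial-like cells against clusters 0 and 1 together and 0.138% for venous-like cells against them. At an unadjusted p under 0.05 there were Ankrd37 and Ndrg1 in the first contrast and P4ha1 in the second. The log2 fold change of Ankrd37 was smaller by 0.65 on the log2 scale in arterial-like cells than in clusters 0 and 1 together (difference -0.65 ± 0.21 SE, edgeR adjusted p = 0.321). Without control diet 2 that difference was -1.41 and passed (adjusted p = 0.0117), so 1 library decides this call. The differences of Ndrg1 (-0.23, adjusted p = 0.197) and P4ha1 (-0.54, adjusted p = 0.511) did not pass. Against cluster 0 alone the arterial-like difference was -0.44 for Ankrd37 (adjusted p = 0.957) and -0.33 for Ndrg1, which passed (adjusted p = 0.0244). Against cluster 1 alone it was -0.74 for Ankrd37 (adjusted p = 0.713), and none of the 9 members passed there.

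**Figure D3:**
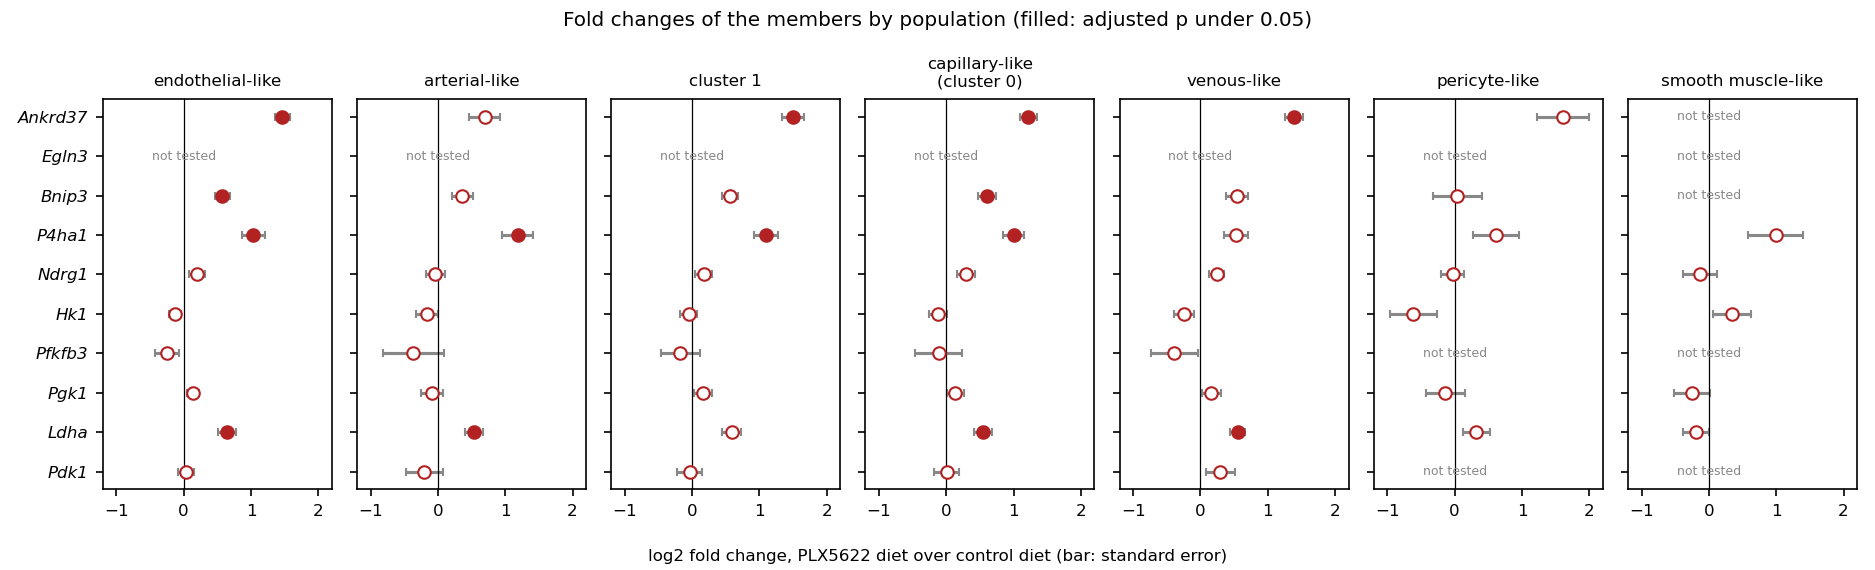
Log2 fold change of PLX5622 over control diet for each member in all endothelial-like cells, arterial-like cells, cluster 1, capillary-like cells (cluster 0), venous-like cells and the 2 mural classes. Points are edgeR estimates with their standard error, filled where the adjusted p is under 0.05, and members with too few counts are marked as not tested. Ankrd37 is at 1.47 in endothelial-like cells, 1.4995 in cluster 1, 1.22 in cluster 0 and 1.39 in venous-like cells, and at 0.69 in arterial-like cells.

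In mural cells no member passed the test. Among pericyte-like cells 7 members had enough counts and 0 of 7069 genes were called with edgeR (0%). DESeq2 and limma-voom called 0 members too, and at an unadjusted p under 0.05 edgeR held 339 genes, with 1 member, Ankrd37, among them. Ankrd37 had 23 and 44 UMIs on PLX5622, against 6 and 16 UMIs on control diet, or 62.4 and 70.0 CPM on PLX5622 and 22.7 and 21.4 CPM on control diet. The libraries of each diet were close to each other and the diets far apart, with a log2 fold change of 1.60 ± 0.38 (SE, edgeR adjusted p = 0.239). These droplets carried endothelial RNA: endothelial markers made up 1.24% and 1.42% of their UMIs on PLX5622 and 1.48% and 1.33% on control diet, against 2.03% to 2.09% in endothelial-like cells. In the pericyte-like cluster with little endothelial RNA (0.625% to 1.07%) Ankrd37 had 8 and 13 UMIs on PLX5622, against 2 and 6 UMIs on control diet, or 37.0 and 43.2 CPM on PLX5622 and 17.1 and 14.6 CPM on control diet. The part of endothelial RNA in the pericyte-like values was not tested.

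In all pericyte-like cells together, the other members showed no such gap. Ldha read 284.9 and 232.4 CPM on PLX5622, against 166.4 and 231.5 CPM on control diet (log2 fold change 0.32 ± 0.20 SE, adjusted p = 1.0), and was -0.25 in cells with fewer than 3 endothelial marker UMIs. Hk1 read 35.3 and 39.8 CPM on PLX5622, against 49.2 and 62.9 CPM on control diet (-0.61 ± 0.35 SE, adjusted p = 1.0). The PLX5622 libraries were thus above both controls for Ankrd37 and Ldha (17.2% of all genes) and below them for Hk1 (17.1%), and the diets overlapped for Bnip3, P4ha1, Ndrg1 and Pgk1. In the cluster with little endothelial RNA, with 14 cells in control diet 1, P4ha1 read 152.6 and 103.0 CPM on PLX5622. On control diet it read 51.3 and 82.5 CPM there, from 6 and 34 UMIs. Bnip3 and Hk1 lay below both controls in that cluster, and Ldha, Ndrg1 and Pgk1 overlapped. That cluster was not tested alone.

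In smooth muscle-like cells, where endothelial markers made up 0.0841% to 0.2995% of UMIs, 5 members were tested and 0 of 6389 genes were called with edgeR (0%), 291 having an unadjusted p under 0.05. DESeq2 and limma-voom called 0 members too. Ankrd37 had 2 and 9 UMIs on PLX5622, against 5 and 14 UMIs on control diet, too few for the test, and the diets overlapped. P4ha1 was the 1 member at an unadjusted p under 0.05, with 53.3 and 39.2 CPM on PLX5622, against 30.3 and 18.8 CPM on control diet (log2 fold change 0.99 ± 0.41 SE, edgeR adjusted p = 0.997). Ldha read 210.5 and 175.4 CPM on PLX5622, against 194.2 and 237.1 CPM on control diet, and the diets overlapped. Both PLX5622 libraries were above both controls for P4ha1 and Hk1 among the tested members (16.6% of all genes), and below them for Pgk1 (15.8%). With 36 to 70 cells in each library, differences of the size seen in endothelial-like cells may not have been detectable here.

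Ankrd37 moved by more than the other members as a set. Its log2 CPM less the mean log2 CPM of the other 8 tested members was 0.692 and 0.758 in the endothelial-like cells of PLX5622 diet 1 and 2, against -0.614 and -0.376 in control diet 1 and 2. The difference was 1.22, with means of 0.725 on PLX5622 and -0.495 on control diet and SDs of 0.047 on PLX5622 and 0.168 on control diet (n = 2 each). The exact two-sided permutation p was 0.333, the smallest that 2 libraries against 2 can give, so this comparison cannot pass 0.05. In clusters 0 and 1 together and in venous-like cells the difference was 1.22 as well, and in arterial-like cells it was 0.44, where the values were -1.02 and -0.879 on PLX5622 and -1.09 and -1.70 on control diet.

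Over the 12 sums of library and zone, with clusters 0 and 1 as 1 zone, each less its zone's mean, the log2 CPM of Bnip3 had a Pearson correlation of 0.86 with that of Ankrd37, and the values were 0.86 for Ndrg1, 0.82 for Ldha, 0.76 for P4ha1, 0.59 for Pgk1 and -0.63 for Hk1. These are descriptions over points that share libraries and the contrast of diets. Among 6276 genes with a mean of at least 20 CPM they ranked 71, 77, 132, 230, 732 and 5660. Among the 5 genes most like Ankrd37 were Pdgfb (0.953), the growth factor by which endothelium recruits pericytes, Mitd1 (0.9498), a protein of late cell division, Copg1 (0.949), a subunit of the COPI vesicle coat, and Parp14 (0.948), an ADP-ribosyltransferase.

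The per-cell level of Ankrd37 was set beside that of the other members. Endothelial-like cells were thinned to 2000 UMIs each, which left out 392 and 146 cells on PLX5622 and 152 and 237 cells on control diet. Of the remaining cells, 15.4% and 15.1% had an Ankrd37 UMI on PLX5622, against 5.42% and 7.05% on control diet. Unthinned, the shares were 24.0% and 31.3% on PLX5622, against 11.95% and 15.66% on control diet. Both scales separate the diets. Among erythroid-like droplets, which are much deeper, with medians of 8654 and 14544 UMIs on PLX5622 and 10503 and 11833.5 UMIs on control diet, the unthinned shares were 23.9% and 24.3% on PLX5622 and 19.0% and 18.8% on control diet. Among smooth muscle-like cells they were 3.28% and 11.7% on PLX5622 and 11.1% and 11.4% on control diet. The endothelial-like share on control diet was thus below that of erythroid-like droplets and above that of smooth muscle-like cells. Smooth muscle-like cells were deeper too, with medians of 8827 and 10593 UMIs on control diet. Endothelial markers made up 1.12% to 1.39% of the UMIs of erythroid-like droplets. As droplets of other types held Ankrd37 UMIs, a UMI in a single cell is not read as expression here. In the erythroid-like droplets the CPM of Ankrd37 overlapped between the diets (54.5 and 36.5 on PLX5622, 58.9 and 26.4 on control diet). The UMIs behind these values were 54 and 54 on PLX5622 and 13 and 41 on control diet. The overlap rests on control diet 1, which had 21 such droplets.

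In endothelial-like cells with an Ankrd37 UMI, the other 9 members together made up 1356 and 1285 CPM on PLX5622 and 1013 and 984 CPM on control diet. In cells without one they made up 1115 and 1077 CPM on PLX5622, against 887 and 938 CPM on control diet. The sum was higher in cells with Ankrd37 in 4 of 4 libraries. Ldha accounted for much of it. Cells with Ankrd37 had 521.9 and 419.1 CPM of Ldha on PLX5622, against 285.7 and 301.2 CPM on control diet. Cells without it had 353.3 and 279.6 CPM on PLX5622, against 195.3 and 251.7 CPM on control diet. The per-cell Pearson correlation of Ankrd37 was between 0.041 and 0.123 with Ldha over the libraries. It was between 0.022 and 0.083 with Bnip3, and between -0.017 and 0.020 with P4ha1. With Pdk1 it was between 0.022 and 0.048, and with Hk1 between 0.0036 and 0.0322. For Egln3, Ndrg1, Pfkfb3 and Pgk1 it took both signs. Pdk1, with few molecules, stood at 23.9 and 25.9 CPM in cells with Ankrd37 on PLX5622, against 26.0 and 24.9 CPM on control diet. In cells without it Pdk1 stood at 12.3 and 19.5 CPM on PLX5622, against 14.9 and 14.5 CPM on control diet. In the thinned cells the correlation of Ankrd37 with the other 9 summed was between 0.0242 and 0.1068, and the median of the 36 pairs among the other 9 was between -0.0028 and 0.0025. Such values from sparse counts describe the cells and are no finding by themselves.

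The rise of Ankrd37 was present at every depth. In cells of 1000 to 2000 UMIs it stood at 133.0 and 110.5 CPM of the UMI total on PLX5622, against 29.6 and 25.6 CPM on control diet. In cells of 8000 UMIs and more it stood at 92.4 and 87.6 CPM on PLX5622, against 20.96 and 35.28 CPM on control diet. The diets did not overlap in any of the 4 classes of depth for Ankrd37, Bnip3 and Ldha, whereas P4ha1 overlapped in the shallowest cells. Bnip3 barely separated in those cells, with 69.07 CPM in PLX5622 diet 2 against 68.36 CPM in control diet 2. The share of all genes without overlap was not computed by depth.

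**Figure D4:**
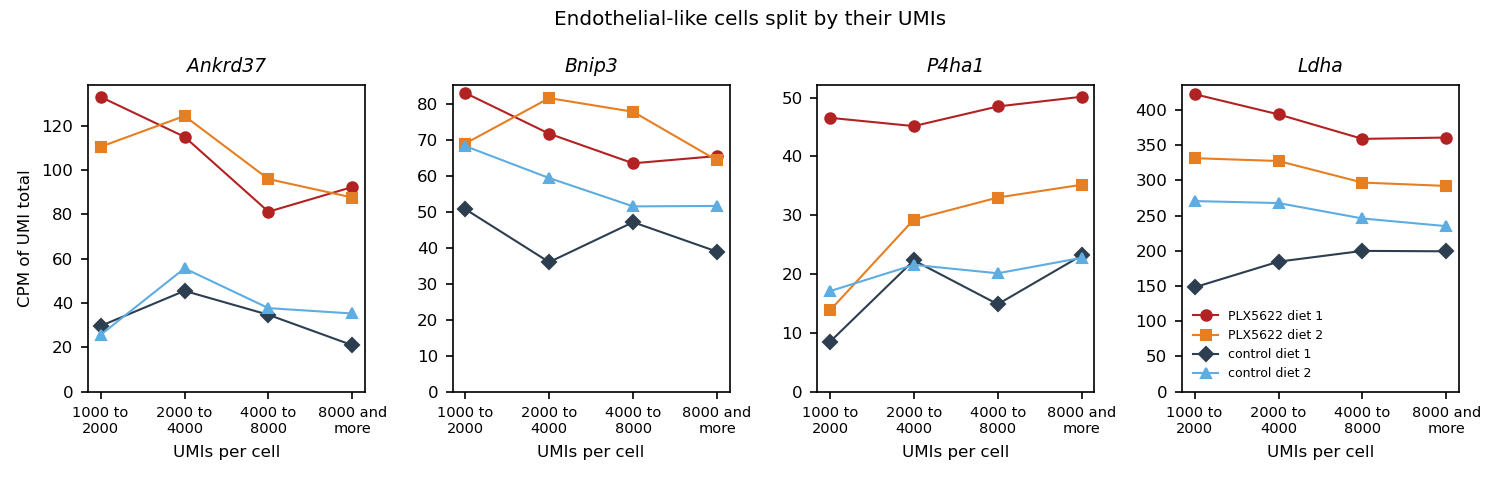
Level of the 4 members that rose in endothelial-like cells split by their number of UMIs, in CPM of the UMI total, 1 line per library. Both PLX5622 lines of Ankrd37 lie above 80 CPM and both control lines below 56 CPM at every depth, and P4ha1 overlaps between the diets at 1000 to 2000 UMIs, with 46.6 and 13.8 CPM on PLX5622 and 8.47 and 17.1 CPM on control diet.

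Other signals moved with the diets in the same sums. Pericyte markers summed to 327.3 and 282.4 CPM in endothelial-like cells on PLX5622, against 215.2 and 225.0 CPM on control diet. None of the 9 markers was at 0, but Rgs5 made up most of the sum. Rgs5 alone read 302.2 and 259.0 CPM on PLX5622, against 200.3 and 204.8 CPM on control diet. At far lower levels Abcc9, Vtn, Higd1b and Ndufa4l2 lay above both controls. The diets overlapped for Pdgfrb, Kcnj8 and Atp13a5, and Cspg4 lay below both controls. Venous markers, of a zone where Ankrd37 was high, summed to 899.8 and 961.7 CPM on PLX5622, against 687.3 and 782.8 CPM on control diet, while Ankrd37 was higher on PLX5622 within venous-like cells as well. A list of 15 immediate early and dissociation genes summed to 37380 and 33330 CPM on PLX5622, against 40470 and 40840 CPM on control diet. Their part in the results was not tested.

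In the rest of the pathway 1 gene passed the test. Of 67 further genes listed by role, 57 were tested in endothelial-like cells, 0 passed as higher and 1 passed as lower, and their median log2 fold change was 0.076, against 0.004 over all tested genes. At an unadjusted p under 0.05 there were 9 higher genes (15.8% of the 57) and 1 lower gene (1.75%), where 5.41% of all tested genes were higher and 5.09% lower. DESeq2 called 2, Aldoa and Adm, both higher, where it called 0.703% of all genes higher. The list was drawn up with earlier results known, and these shares are descriptions. The gene that fell was Pdk4, a pyruvate dehydrogenase kinase induced by fasting and fatty acids. It read 5.34 and 5.50 CPM on PLX5622, against 10.3 and 8.80 CPM on control diet (log2 fold change -0.79 ± 0.17 SE, edgeR adjusted p = 0.0335). Both PLX5622 libraries were lower than both controls, and the call was lost with DESeq2 (adjusted p = 0.137), without PLX5622 diet 2 (0.0617), without control diet 1 (0.0794) and without control diet 2 (0.059).

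Of 10 genes of the HIF machinery 8 were tested and 0 passed, with a median log2 fold change of 0.008. Hif1a, the oxygen-regulated subunit of HIF-1, read 96.4 and 94.5 CPM on PLX5622, against 83.8 and 90.2 CPM on control diet (0.13 ± 0.09 SE, adjusted p = 0.677). Cited2, which restrains HIF by competing for its coactivators, had a log2 fold change of -0.13 (adjusted p = 0.75). Of 4 glucose and lactate transporters 3 were tested and 0 passed, among them Slc2a1, the glucose transporter of the blood-brain barrier (0.08, adjusted p = 0.891), and Slc16a1, a lactate transporter (0.08, adjusted p = 0.867).

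Of 14 further glycolytic enzyme genes 12 were tested and 0 passed, with a median log2 fold change of 0.161. The smallest p among them belonged to Aldoa, which splits fructose 1,6-bisphosphate, at 325.8 and 327.7 CPM on PLX5622, against 226.4 and 256.0 CPM on control diet. The diets did not overlap, and the log2 fold change of 0.44 ± 0.10 (SE) missed the threshold (edgeR adjusted p = 0.0579) but passed with DESeq2 (0.00817), with library totals (0.0352) and without control diet 2 (0.012). Tpi1, the triose phosphate isomerase, had a log2 fold change of 0.29 (adjusted p = 0.326; 0.0282 without control diet 2).

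The other roles gave few differences. Pfkfb2 and Pfkfb4, the tested relatives of Pfkfb3, had log2 fold changes of -0.03 and 0.01, and Pdk3 had 0.26 (adjusted p = 0.671). Of 31 other HIF targets 27 were tested and 0 passed. Adm, the vasodilator peptide adrenomedullin, read 59.4 and 82.2 CPM on PLX5622, against 37.0 and 45.9 CPM on control diet (0.76 ± 0.16 SE, edgeR adjusted p = 0.0732). It lay above both controls and passed with DESeq2 (0.00155) and with library totals (0.0174). With single libraries left out its log2 fold change was 0.50 to 0.97, and it did not pass without control diet 1 (0.435) or without control diet 2 (0.205). Its adjusted p of 5.99e-10 without PLX5622 diet 1 and 0.0301 without PLX5622 diet 2 rest on 1 PLX5622 library with no spread of its own. Ak4, a mitochondrial adenylate kinase, had a log2 fold change of 0.55 (adjusted p = 0.146). Apln, named after its values were seen for its large estimate of 1.58 ± 0.53 (SE, adjusted p = 0.3), overlapped between the diets, with 1.85 and 4.18 CPM on PLX5622 and 1.96 and 0.660 CPM on control diet.

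**Figure D5:**
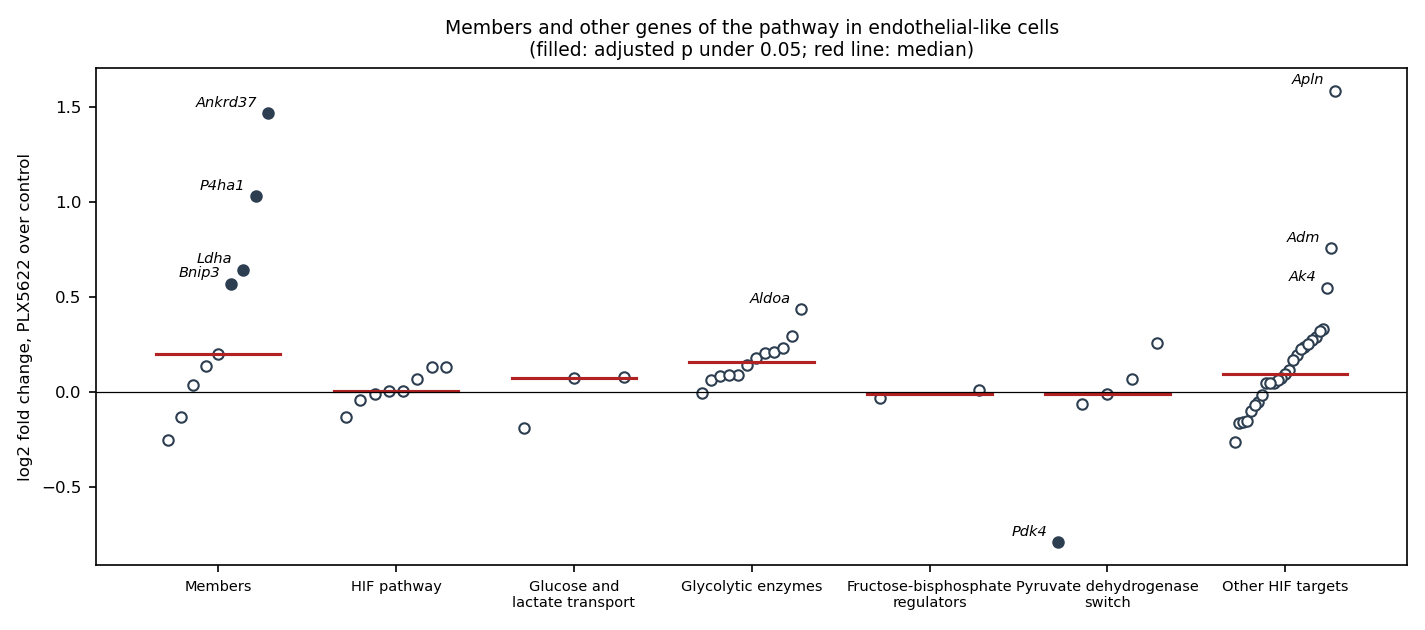
Log2 fold change of PLX5622 over control diet in endothelial-like cells for the 9 tested members and the 57 tested genes of the rest of the pathway, grouped by role. Each point is a gene, filled where the adjusted p is under 0.05, and red lines are medians. The filled points are Ankrd37, P4ha1, Ldha and Bnip3 among the members and Pdk4 below 0 among the others.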

How the data were processed

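The authors deposited raw UMI counts per gene and barcode for all barcodes, with no step that called cells. Seurat 4.0, Cell Ranger 6.0.1 and the builds mm10 and mm39 appear without a role, per the submitters' processing notes, while the file headers name Cell Ranger 4. The build and annotation behind the counts are not given in the sources used here, and GENCODE M21 (GRCm38), which held 32158 of the 32285 gene identifiers, supplied coordinates only. The members and gene lists were chosen with earlier results of these data known.

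Cells passing the filters were clustered (2000 variable genes, 30 components, 15 neighbours, resolution 0.5), and endothelial-like cells again without members and pathway genes (1000 genes, 10 components, 20 neighbours, resolution 0.3, settings chosen with the clusters in view and ahead of the diet tests). Python 3.11.15, scikit-learn 1.9.0 and igraph 0.11.9 were used. Names rest on at least 3 markers. No doublet caller was run, and leaving out the 5% of cells with the most UMIs served as an alternative.

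Counts were summed per library and population, with at least 20 cells in each library. Sums were tested with edgeR 4.0.16 (R 4.3.3; TMM, default low-count filter, robust quasi-likelihood, two-sided, Benjamini-Hochberg over all genes). Zone differences were tested with the library as a block. Clusters 0 and 1 were planned as 1 capillary zone and were also fitted alone, an alternative chosen after seeing the data. DESeq2 1.42.0 and limma-voom 3.58.1 were alternatives, and the test was checked on simulated counts. Besides the members, the genes named were every pathway gene past the threshold, the 2 with the smallest p in each role, and the 5 most like Ankrd37, of which 1 is not reported here. Libraries of a diet differed by more than sampling noise (chi-square per degree of freedom 6.22 for PLX5622 and 9.75 for control diet), so none was a copy.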

Additional observations from a re-analysis of the deposited data

Results flagged for a closer look

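Barcodes under 100 UMIs, which hold free RNA rather than cells and enter no comparison, showed the diet difference of the 4 members that rose. Ankrd37 stood at 113.1 and 94.23 CPM there on PLX5622, against 44.5 and 33.4 CPM on control diet. Bnip3 stood at 71.8 and 66.82 CPM on PLX5622, against 43.5 and 46.4 CPM on control diet. P4ha1 stood at 47.9 and 34.27 CPM on PLX5622, against 19.9 and 20.3 CPM on control diet. Ldha stood at 413.6 and 374.7 CPM on PLX5622, against 260.3 and 280.3 CPM on control diet. In each case both PLX5622 libraries were above both controls. Both were also above for Ndrg1, at 456.6 and 491.2 CPM on PLX5622, against 406.1 and 412.2 CPM on control diet. For Pgk1 both were below, at 66.9 and 62.3 CPM on PLX5622, against 74.8 and 70.4 CPM on control diet. The remaining members overlapped. The share of all genes without overlap in these barcodes was not computed. The part of such RNA in the values per cell was not tested.

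For Hk1 both PLX5622 libraries lay above both controls in smooth muscle-like cells and below both in endothelial-like and pericyte-like cells. For Pgk1 both lay below both controls in smooth muscle-like cells and above both in endothelial-like cells. The log2 fold change of Hk1 was 0.3482 in smooth muscle-like cells, against -0.13 in endothelial-like and -0.61 in pericyte-like cells. That of Pgk1 was -0.2493 in smooth muscle-like cells and 0.14 in endothelial-like cells. Pgk1 was also below 0 in pericyte-like (-0.14) and arterial-like cells (-0.08), where the diets overlapped, and the diets overlapped for Hk1 in clusters 0 and 1 together. None of these fold changes passed its own test, and the differences between cell classes were not tested.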

How the results depend on the processing

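Ankrd37 was called in endothelial-like cells under all 15 alternatives, with log2 fold changes of 1.32 to 1.69 and adjusted p up to 3.69e-06. Of the values for single genes, 806 kept direction and side of the threshold, 25 fell short of it, 16 newly passed and 45 changed sign. The 4 members called in endothelial-like cells became 2 with the replicate number as a block (Ankrd37 and Bnip3) and 2 to 4 when each library was left out (2 without control diet 1). Same-numbered libraries deviated with correlations of -0.11 to 0.06, each taken over all tested genes of a population. Such a value cannot tell whether same-numbered libraries were prepared together or share an effect on some genes, so the block fit is not discounted by it. The block moved the calls over all genes to 183 higher and 93 lower, against 96 and 45. In cells under 4000 UMIs, a split chosen after seeing the data, 3 members were called (Bnip3 adjusted p = 0.115), and 4 in deeper cells. With library totals in place of TMM, 53.6% of 183 calls were higher (98 against 85), and 68.1% with TMM. The 1 pathway gene became 3 with library totals, 2 with DESeq2, 3 with the block and 0 to 3 without single libraries (0 without control diet 1). The 2 arterial-like members became 1 with library totals, 0 with DESeq2 and 0 to 2 without single libraries, and the 2 venous-like members 1 to 3. The block gave 1 pericyte-like member, Ankrd37 (adjusted p = 0.0414), and leaving out single libraries gave 0 to 1 arterial zone differences. The 4 members called in clusters 0 and 1 together became 2 in cluster 1 alone and 4 in cluster 0 alone, and cluster 0 alone gave 1 arterial zone difference, Ndrg1. A crossed block in smooth muscle-like cells, chosen after seeing the data, called 0 members and 15 genes. The cell by cell correlation of Ankrd37 with the other members was 0.068 thinned and 0.116 unthinned. The causes were not tested.

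Changes of sign were confined to estimates that had not passed. With library totals Pdk1 was -0.0037 and Pfkfb4 -0.0126 in endothelial-like cells. Pdk1 in clusters 0 and 1 together was 0.0122 at a mitochondrial limit of 5% and 0.0103 from 2000 UMIs, and 0.0065 in cluster 0 alone. With cluster 0 alone as the capillary term the arterial zone difference of Ldha was 0.0240, and the venous ones were 0.1841 for Ankrd37, -0.0586 for Ndrg1 and 0.0581 for Ldha, which was 0.0037 with cluster 1 alone. In pericyte-like cells Bnip3 was -0.3501 at that limit and -0.0228 without the 5% of cells with the most UMIs, Ndrg1 was 0.0116 at the limit and 0.0286 from 2000 UMIs, and Ldha was -0.2540 in cells with under 3 endothelial marker UMIs. The venous zone difference of Pgk1 was -0.0069 without the low-count filter. Leaving out single libraries gave ranges across 0. In endothelial-like cells these were -0.0289 to 0.0906 for Pdk1, -0.1441 to 0.0842 for Pfkfb2, -0.1530 to 0.3651 for Pfkfb4 and -0.2927 to 0.0848 for Cited2. In arterial-like cells they were -0.0848 to 0.0119 for Ndrg1 and -0.2903 to 0.0520 for Pgk1, in clusters 0 and 1 together -0.1457 to 0.0970 for Pdk1 and in venous-like cells -0.6599 to 0.0444 for Pfkfb3. They were -0.1736 to 0.0869 for Ndrg1 and -0.0585 to 0.2612 for Bnip3 in pericyte-like cells, and -0.3955 to 0.4032 for Ndrg1 in smooth muscle-like cells. The arterial zone differences ran from -0.1858 to 0.0232 for Hk1 and from -0.4139 to 0.3851 for Pfkfb3. The venous zone differences ran from -0.0966 to 0.0442 for Ankrd37, -0.1487 to 0.3983 for Bnip3, -0.1816 to 0.0676 for Ldha, -0.0027 to 0.0771 for Ndrg1, -0.0644 to 0.7390 for Pdk1, -0.5535 to 0.5328 for Pfkfb3 and -0.0781 to 0.0708 for Pgk1. Depth limits Egln3, Pfkfb3 and the mural cells, where few molecules were counted.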
